A study of Caenorhabditis elegans with 51 samples.

Results

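Small RNA against 10 genes of meiotic recombination and DNA break repair was looked up by gene symbol, or by sequence name where the symbol had no row, in a table of small RNA levels for 20202 Caenorhabditis elegans genes. The genes were chosen by their role: spo-11, dsb-1 and dsb-2 (break formation), rad-51 (strand exchange), msh-5, him-14, cosa-1 and zhp-3 (crossover formation), and brc-1 and brd-1 (a ubiquitin ligase of break repair). The choice was made with earlier results of these data known. Of these 10 genes, 9 had a row. dsb-1 was matched by its sequence name F08G5.1 and cosa-1 by Y71H2AM.7, the others by symbol, and dsb-2 matched no row and was not analysed here. A gene was tested if 2 or more libraries had at least 1 RPKM of small RNA against it, and all 9 were among the 10908 genes that met this. RPKM is the number of reads divided by the length of the gene model and by the reads of the library, so levels of different genes are comparable per length.

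The series compared endogenous small RNA of C. elegans young adults in 51 samples, of which 6 carry the values used here. They form 3 groups of 2 libraries: the input, small RNA precipitated with HRDE-1, and small RNA precipitated with CSR-1 (small RNA immunoprecipitation, sRIP). All 6 came from strain CSS342, with the genotype Cer3(red20), SF-HRDE-1 and c-myc-CSR-1 and a fragment of oma-1 inserted in Cer3, a retrotransposon. The controls thus carry the same tagged proteins and the same insert as the precipitates, and neither was compared with its absence. No untreated or untagged strain and no mock precipitation is among these libraries, so carry-over of input RNA and binding cannot be told apart. Small RNAs were treated with phosphatase and phosphorylated again before linkers were ligated, which lets 5′-triphosphate siRNAs into the library as well as monophosphorylated ones. Whole animals were used, so fewer cells of a type and less RNA per cell cannot be told apart.

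The library totals deduced from the values ran from 2104162 to 4992358 reads, and from 40.1% to 52.4% of them lay on gene models. The 2 input libraries differed by less than the sampling noise (chi-square test over 8966 genes, 0.986 per degree of freedom, p = 0.828) and were counted as 1 sample, so input means have no SD. The labels do not tie the replicates to separate cultures, and p-values then cover just the spread among these samples, which may be technical. Summed small RNA against 5 germline marker genes was 345 and 352 RPKM in the input, 190 and 191 in HRDE-1 and 487 and 525 in CSR-1, with no marker at 0 in all libraries. The sum does not hold for each marker. nos-2, 1 of the 5, was higher in HRDE-1, at 26.1 and 28.5 RPKM, than in the input, at 17.6 and 15.5. Summed small RNA against 5 sperm markers was ordered in reverse of the germline sums, from 40.0 and 41.9 RPKM in the input to 50.4 and 57.7 in HRDE-1 and 4.90 and 6.15 in CSR-1. Neuron markers were ordered like those of sperm, with 59.6 and 62.5, 88.4 and 84.0, and 39.0 and 38.4 RPKM, as were muscle markers at 9.62 RPKM or less. Intestine markers were ordered like the germline sums, with 4.29 and 4.59, 0.553 and 0.176, and 7.595 and 5.51 RPKM, and 3 of 4 hypodermis markers were at 0 in all libraries. The part of these marker levels in the results below was not tested.

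In meiosis, germ cells cut their own DNA in a programmed way. SPO-11, a relative of topoisomerases, makes the breaks with the help of accessory proteins, the RAD-51 recombinase coats the resected ends and leads them to the homologous chromosome, and a subset of the joined molecules matures into crossovers that hold homologs together until they segregate. In the C. elegans germline, siRNAs made on many expressed mRNAs are loaded on CSR-1, an Argonaute known for binding siRNAs against germline-expressed genes, while HRDE-1 acts in the nucleus in silencing that is inherited over generations. The values below are small RNA against these genes, not their mRNA, which was not analysed here.

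Small RNA against 8 of the 9 genes stood higher in the CSR-1 precipitate than in the HRDE-1 precipitate by a factor of 2.496 (zhp-3) to 4.52 (spo-11), and rad-51 was the exception with a factor of 1.09. Relative to the input, HRDE-1 libraries held less of it and CSR-1 libraries mostly more. In RPKM, all 9 genes had both HRDE-1 libraries below both input libraries, and 8 of 9 had both CSR-1 libraries above both input libraries. Of all tested genes, 41.7% had the first separation and 33.2% the second. rad-51 lay below the input in both precipitates, as did 10.4% of all tested genes without overlap, a direction that turned when the libraries were brought to a common median. The plot of RPKM by library shows these levels.

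**Figure D1:**
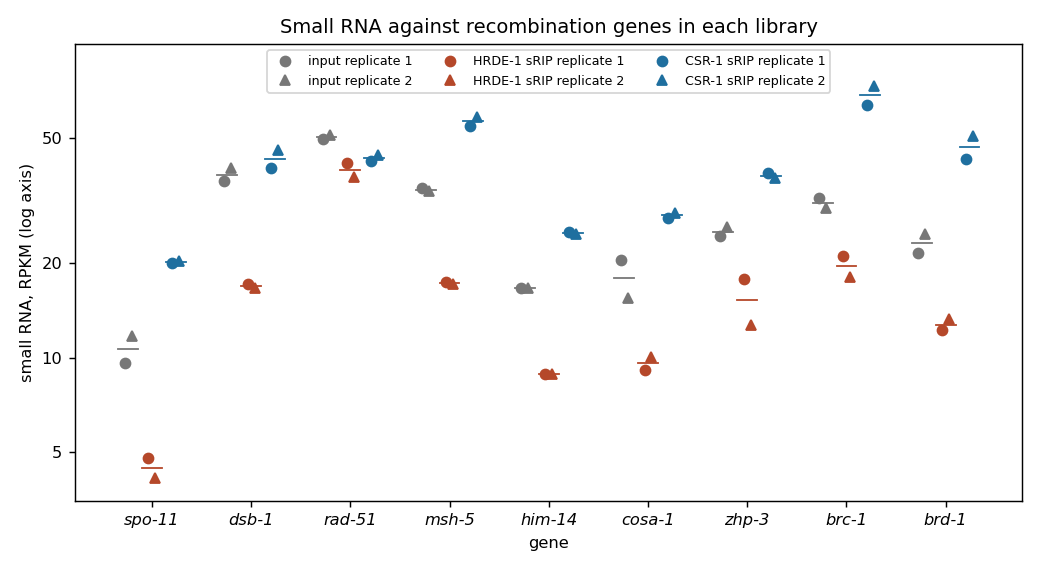
Small RNA (RPKM, log axis) against each recombination gene (horizontal axis) in each of the 6 libraries, with circles for replicate 1, triangles for replicate 2 and short lines for group means. HRDE-1 points (red) lie below the input (grey) for all 9 genes and CSR-1 points (blue) above it for 8 of 9 (41.7% and 33.2% of all tested genes separate in these ways), while the 3 groups of rad-51 lie between 37.7 and 51.3 RPKM on this scale, where another scaling turns its sign.

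spo-11 encodes the topoisomerase-like enzyme that makes meiotic breaks. Its small RNA level was 9.59 and 11.8 RPKM in the input, 4.79 and 4.14 in HRDE-1 and 19.97 and 20.3 in CSR-1. The groups did not overlap, and CSR-1 libraries were the highest and HRDE-1 libraries the lowest. From a mean of 10.7 RPKM in the input, the HRDE-1 level of 4.46 ± 0.462 (SD, n = 2) was a fall, with a log2 fold change of −1.10 ± 0.17 (SE, limma adjusted p = 0.0121). In CSR-1 the level was 20.2 ± 0.252 RPKM (SD, n = 2), a log2 fold change of 0.86 ± 0.17 (SE, limma adjusted p = 0.0102) that passed the adjusted p but not the required fold. spo-11 had the fewest reads of the 9 genes, down to 19 in 1 HRDE-1 library, and without input replicate 2 its HRDE-1 log2 fold change was −0.96 and was not called. On WBcel235 its exons overlap those of enpl-1 on the opposite strand, whose small RNA had log2 fold changes of −1.68 in HRDE-1 and 0.98 in CSR-1, and since the strand counted is not given, reads of the pair cannot be told apart.

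dsb-1 encodes a protein that C. elegans needs to form meiotic breaks. It had 36.5 and 40.2 RPKM of small RNA in the input, 17.2 and 16.7 in HRDE-1 and 40.4 and 45.9 in CSR-1. Both HRDE-1 libraries were well under the input, while the CSR-1 libraries began right above the higher input library. The HRDE-1 mean of 16.96 ± 0.327 RPKM (SD, n = 2) was 0.442 times that of the input. The CSR-1 mean of 43.1 ± 3.92 RPKM (SD, n = 2) gave a log2 fold change of 0.16 with a 95% interval of −0.16 to 0.49 (limma adjusted p = 0.288). In HRDE-1 against input its log2 fold change was −1.13 ± 0.13 (SE, limma adjusted p = 0.00937), next to that of spo-11, whose ratio of RPKM was the lower of the pair at 0.418. Small RNA against acl-13, which shares exon sequence with dsb-1 on the same strand, was at most 0.435 RPKM in any library.

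rad-51 encodes the recombinase that carries out strand exchange. Its small RNA was 49.7 and 51.3 RPKM in the input, 41.9 and 37.7 in HRDE-1 and 42.4 and 44.4 in CSR-1. The groups did not overlap, but the higher HRDE-1 library lay just under the lower CSR-1 library. It had the highest level of the 9 genes in the input and in HRDE-1 (39.8 ± 2.96 RPKM, SD, n = 2) and the fourth highest in CSR-1 (43.4 ± 1.41 RPKM, SD, n = 2). None of its differences was called. The log2 fold change was −0.34 in HRDE-1 (95% interval −0.64 to −0.04, limma adjusted p = 0.0692) and −0.21 in CSR-1 (95% interval −0.52 to 0.09, limma adjusted p = 0.155). Between the precipitates it was −0.12 (95% interval −0.37 to 0.12, limma adjusted p = 0.266), an interval that ends short of every other member's value. The signs against the input rest on the scaling, as rad-51 had 0.05 in HRDE-1 and 0.25 in CSR-1 with library medians centred. The size of the difference between the precipitates rests on it too. It was −0.62 when each precipitate's median ratio to the input was set to 0.

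msh-5 and him-14 encode the MutS-type partners, MSH-5 and the C. elegans MSH-4, that bind joined DNA molecules and stabilise crossover intermediates. msh-5 small RNA was 34.8 and 33.9 RPKM in the input, 17.4 and 17.1 in HRDE-1 and 54.7 and 58.6 in CSR-1. him-14 small RNA was lower, with 16.7 RPKM in each input library, 8.86 and 8.90 in HRDE-1 and 25.2 and 24.9 in CSR-1. For both partners the groups were ordered HRDE-1, input, CSR-1 with no overlap. The HRDE-1 log2 fold changes were −0.95 ± 0.11 for msh-5 (SE, limma adjusted p = 0.00937) and −0.84 ± 0.13 for him-14 (SE, limma adjusted p = 0.0116). Those in CSR-1 were 0.71 ± 0.11 (SE, limma adjusted p = 0.00446) and 0.56 ± 0.13 (SE, limma adjusted p = 0.0153), so all 4 passed the adjusted p and missed the required fold. him-14 shares exon sequence with nos-2, a germline Nanos gene on the opposite strand, whose small RNA had log2 fold changes of 0.69 in HRDE-1 and 0.30 in CSR-1. Without the strand counted, reads of this pair cannot be told apart.

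cosa-1 encodes a cyclin-related protein that marks the sites designated as crossovers. Its small RNA was 20.5 and 15.5 RPKM in the input, 9.16 and 10.04 in HRDE-1 and 27.9 and 29.0 in CSR-1. HRDE-1 libraries were below and CSR-1 libraries above both input libraries, which for this gene lay furthest apart in proportion. The log2 fold changes were −0.84 ± 0.13 in HRDE-1 (SE, limma adjusted p = 0.0123) and 0.63 ± 0.13 in CSR-1 (SE, limma adjusted p = 0.0118), neither of which reached the required fold. Without input replicate 2, the HRDE-1 value was −1.02 and was called. Y71H2AM.12, which overlaps cosa-1 on the opposite strand, had 74.8 and 87.2 RPKM in the input, 118 and 110 in HRDE-1 and 11.3 and 6.53 in CSR-1. These directions were opposite to those of cosa-1. As the strand counted is not given, reads of this pair cannot be told apart either.

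zhp-3 encodes a RING finger protein of the crossover sites. Its small RNA was 24.5 and 26.0 RPKM in the input, 17.8 and 12.7 in HRDE-1 and 38.7 and 37.4 in CSR-1. The groups did not overlap, although the HRDE-1 libraries of zhp-3 differed more than those of any other member in RPKM (SD 3.57, n = 2). The log2 fold change was −0.71 ± 0.21 in HRDE-1 (SE, limma adjusted p = 0.0473) and 0.57 ± 0.21 in CSR-1 (SE, limma adjusted p = 0.0595), of which the second passed neither threshold.

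brc-1 and brd-1 encode the partners of the C. elegans BRCA1-BARD1 complex, a ubiquitin ligase of break repair. brc-1 small RNA was 32.3 and 30.1 RPKM in the input, 21.1 and 18.1 in HRDE-1 and 63.8 and 73.3 in CSR-1. brd-1 small RNA was 21.5 and 24.8 RPKM in the input, 12.2 and 13.3 in HRDE-1 and 43.2 and 50.8 in CSR-1. In CSR-1, brc-1 had 2.20 times and brd-1 2.03 times the mean level of the input, with every CSR-1 library above the others. brc-1 rose in CSR-1 (log2 fold change 1.11 ± 0.15 SE, limma adjusted p = 0.00328). brd-1 stood at 0.99 ± 0.15 (SE, limma adjusted p = 0.00417), just short of the required fold, and was called at 1.09 without input replicate 2 and at 1.10 without CSR-1 replicate 1. In HRDE-1 the log2 fold changes were −0.65 ± 0.15 for brc-1 (SE, limma adjusted p = 0.0263) and −0.81 ± 0.15 for brd-1 (SE, limma adjusted p = 0.0154).

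HRDE-1 sRIP was set against the input to ask whether small RNA against these genes was enriched or depleted with HRDE-1. A gene was called where the limma adjusted p was under 0.05 and the log2 fold change was 1 or more in either direction. spo-11 and dsb-1, both break formation genes, fell, and 0 of 9 rose. All 9 had an unadjusted p under 0.05 in limma and a negative fold change. An unadjusted p under 0.05 was also found for 6043 of the 10908 tested genes, in either direction. Of 7 other genes of break formation 0 were called in limma. All 7 had an unadjusted p under 0.05, 6 of them below the input and rec-1 above it at 0.56. The calls make 2 of 9 genes, where 10.3% of all tested genes fell and 7.15% rose. By the adjusted p alone, 8 of 9 were lower, all but rad-51, against 28.1% of all tested genes. The median log2 fold change of the 9 genes was −0.84, beside −0.03 over all tested genes. Over the 7632 genes with a mean of at least 5 RPKM, which include all 9, the median was −0.27. With library medians centred, which moved the median of all genes from −0.03 to 0.35, the members' median was −0.45, 0 of 9 were called, where 3.05% of all tested genes were called lower. Of the 9, 6 then had an unadjusted p under 0.05 in limma, as had 6529 of the 10908 tested genes. Below 0 were 8 of the 9, and 4036 of all tested genes. The calls of spo-11 and dsb-1 were also lost in the fits that left out either HRDE-1 library. There spo-11 stayed at −1.19 or −1.01 and dsb-1 at −1.15 or −1.11. Without either CSR-1 library, which changes only the estimated spread and the genes tested, dsb-1 was called and spo-11 was not.

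CSR-1 sRIP was set against the same input as HRDE-1 sRIP, so the values of both stand side by side and are no independent evidence of opposite directions. brc-1 alone rose, 1 of 9 genes, where 7.13% of all tested genes rose and 36.8% fell. By the adjusted p alone 6 of 9 were higher, against 23.7% of all tested genes, and 0 were lower, against 45.4%. The 6 were spo-11, msh-5, him-14, cosa-1, brc-1 and brd-1, and the other members were dsb-1, rad-51 and zhp-3. The median of the 9 genes was 0.63, beside −0.54 over all tested genes. Over the 7632 genes with a mean of at least 5 RPKM the median was −0.10. Centring the library medians moved the median of all genes to −0.08, and setting each precipitate's median ratio to the input to 0 moved it to −0.01. Either scaling called 7 of 9 higher, all but dsb-1 and rad-51, where 23.3% and 25.5% of all tested genes were called higher. The intervals of each difference are shown in the plot of log2 fold changes by gene.

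**Figure D2:**
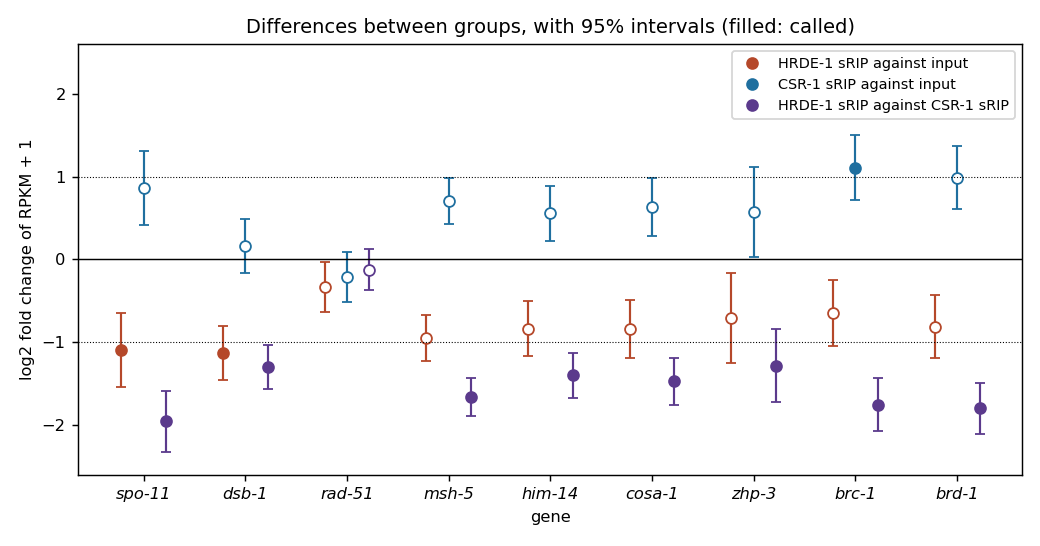
Log2 fold change of RPKM + 1 (vertical axis) with its 95% interval for each recombination gene in the 3 comparisons, filled where a gene was called and open where not. HRDE-1 against CSR-1 (purple) is called lower for all genes but rad-51, while of the comparisons with input only spo-11, dsb-1 (HRDE-1, red) and brc-1 (CSR-1, blue) are called, and the red and blue signs of rad-51 turn with library medians centred.

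Set directly against each other, without the input, the precipitates differed by the required fold for all members but rad-51. The log2 fold change of rad-51, −0.12, moved to −0.62 when each precipitate's median ratio to the input was set to 0. Small RNA against 8 of 9 genes was called lower in HRDE-1 than in CSR-1, where 26.6% of all tested genes were lower and 43.7% higher. The log2 fold changes of the 8 ran from −1.96 ± 0.14 for spo-11 to −1.28 ± 0.17 for zhp-3 (SE, limma adjusted p from 8.40e-05 to 0.00135). brd-1 followed spo-11 at −1.80 ± 0.12 and brc-1 at −1.76 ± 0.12, then msh-5 at −1.66 ± 0.09 (SE). cosa-1 stood at −1.47 ± 0.11, him-14 at −1.40 ± 0.10 and dsb-1 at −1.29 ± 0.10 (SE). The median of the 9 genes was −1.47, beside 0.60 over all tested genes. That median rests on genes of low level, as it was −0.21 over the 7632 genes with a mean of at least 5 RPKM. Of these 7632, which include all 9 members, 2702 were called lower in their own fit and 2820 higher. With library medians centred 8 of 9 were again called (28.3% of all tested genes), as they were with the median ratio set to 0 (35.2%) and with each library left out in turn, and rad-51 was not.

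Against the distribution of all tested genes, the members sat on 1 side of the median in each comparison. In HRDE-1 against input their percentiles ran from 7.09 for dsb-1 to 39.0 for rad-51, where 0 is the lowest fold change. In CSR-1 against input they ran from 57.0 for rad-51 to 95.2 for brc-1. Between the precipitates they ran from 5.20 for spo-11 to 40.8 for rad-51. The side held by rad-51 rests on the genes tested. With a mean of at least 5 RPKM required, the median of all genes was −0.10 in CSR-1 against input, above the −0.21 of rad-51. Between the precipitates it was −0.21, below the −0.12 of rad-51. The histogram of all tested genes shows that the fold changes between the precipitates had a peak below 0 and a broad spread above 0, and that 8 of the 9 genes lay in or next to that peak.

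**Figure D3:**
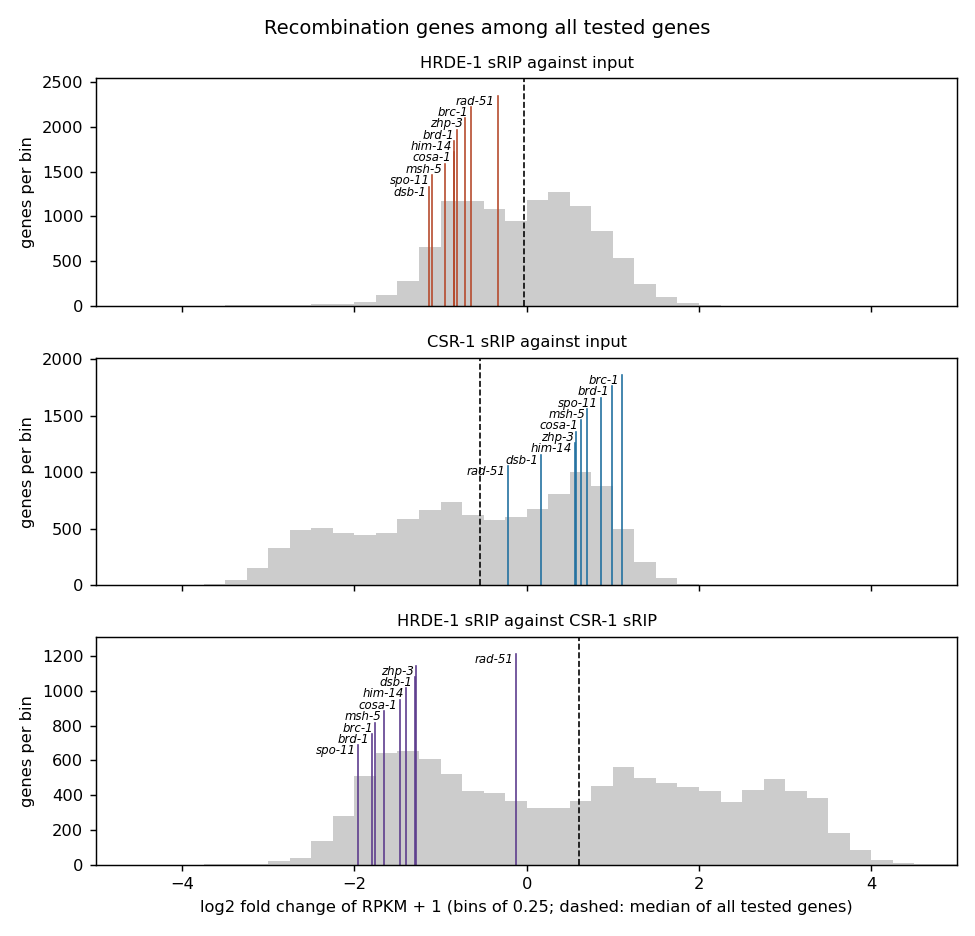
Number of tested genes (vertical axis) by log2 fold change of RPKM + 1 (horizontal axis, drawn from −5 to 5) in each comparison, with coloured lines for the recombination genes, whose heights have no meaning, and a dashed line at the median of all 10908 genes. The members lie left of the median in the upper and lower panels and right of it in the middle panel.

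The order of levels among the members was partly shared between the groups. spo-11 had the lowest level in each group, and him-14 and cosa-1 came next. In the input, rad-51 led at 50.5 RPKM, followed by dsb-1 (38.3), msh-5 (34.3), brc-1 (31.2), zhp-3 (25.3), brd-1 (23.1), cosa-1 (17.98), him-14 (16.7) and spo-11 (10.7), with overlapping library ranges for zhp-3 and brd-1 and for cosa-1 and him-14. In HRDE-1, rad-51 stood apart at 39.8 RPKM from brc-1 at 19.6, and msh-5, dsb-1, zhp-3 and brd-1 followed with ranges that overlap from each to the next. In CSR-1, brc-1 led at 68.6 RPKM before msh-5 at 56.7, while brd-1, rad-51 and dsb-1 overlapped between 40.4 and 50.8 RPKM. The highest mean was 4.73 times the lowest in the input, 8.91 times in HRDE-1 and 3.40 times in CSR-1. Among all tested genes, brc-1 moved from percentile 71.5 of the level in the input to 65.2 in HRDE-1 and 92.8 in CSR-1, and spo-11 from 41.5 to 26.6 and 61.9.

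The deduced number of reads behind a member's value ran from 19 to 1154 per library. spo-11, dsb-1, rad-51 and msh-5 lie on chromosome IV, him-14 on II, cosa-1, brc-1 and brd-1 on III and zhp-3 on I in WBcel235, and all are protein-coding. The exons of rad-51, msh-5, zhp-3, brc-1 and brd-1 overlap no exon of another gene there. The build that the deposited values rest on is not given in the sources used here, and none of the members' deduced model lengths, from 1165 bases for cosa-1 to 4223 for msh-5, equals an annotated length in WBcel235.

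A list of 43 other genes of recombination and break repair was measured in the same fit, and all 43 were tested. The list, too, was drawn up with earlier results of these data known. In HRDE-1 against input, 37 of the 43 had an unadjusted p under 0.05 in limma, as had 6043 of the 10908 tested genes. The median log2 fold change of the 43 was −0.71. Of them, 5 fell, a share near the 10.3% of all tested genes, and 0 rose. They were zhp-1, a RING finger relative of zhp-3 (−1.14 ± 0.24), msh-2, a mismatch recognition gene (−1.06 ± 0.12), xpf-1, a structure-specific nuclease (−1.05 ± 0.18), rad-54, a partner of RAD-51 (−1.04 ± 0.12), and brc-2, the BRCA2 ortholog that loads RAD-51 (−1.01 ± 0.11; log2 fold change ± SE, limma adjusted p from 0.00937 to 0.0199). With library medians centred, none of the 5 was called in limma. An unadjusted p under 0.05 was then found for 21 of the 43 and for 6529 of the 10908 tested genes. By the adjusted p alone, 30 of 43 were lower and 2 higher, where 28.1% and 15.9% of all tested genes were.

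In CSR-1 against input, 9 of the 43 rose and 2 fell, where 7.13% and 36.8% of all tested genes did, with a median of 0.58. The largest rises were those of smc-5, a subunit of the SMC-5/6 complex (log2 fold change 1.25 ± 0.12 SE), gen-1, a Holliday junction nuclease (1.15 ± 0.13 SE), fcd-2, the FANCD2 ortholog (1.14 ± 0.16 SE), and com-1, a gene of end resection (1.13 ± 0.12 SE; limma adjusted p from 0.00122 to 0.00378 for the 4). ercc-1, the gene of the partner of the XPF-1 nuclease, fell by 1.35 ± 0.16 on the log2 scale and mlh-1, a mismatch repair gene, by 1.23 ± 0.14 (SE, limma adjusted p = 0.00207 and 0.00183). Centring the library medians called 22 of 43 higher and 0 lower, where 23.3% and 27.2% of all tested genes were called. Setting the median ratio to 0 called 23 of 43 higher and 0 lower, where 25.5% and 25.8% of all tested genes were called.

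Between the precipitates, 27 of the 43 were lower in HRDE-1 and 3 higher, where 26.6% and 43.7% of all tested genes were, with a median of −1.28, as the plot by role shows. brc-2 (−2.06 ± 0.09), xpf-1 (−2.01 ± 0.14), com-1 (−1.97 ± 0.10) and top-3, a topoisomerase that takes joint molecules apart (−1.97 ± 0.22), were the lowest (log2 fold change ± SE, limma adjusted p from 5.96e-05 to 0.000731). The 3 that were higher in HRDE-1 were ercc-1 (1.89 ± 0.13), mlh-1 (1.56 ± 0.11) and rec-1, a gene of crossover distribution (1.39 ± 0.08; log2 fold change ± SE, limma adjusted p from 0.000110 to 0.000173). ercc-1 small RNA was 87.0 and 88.9 RPKM in the input, 116 and 141 in HRDE-1 and 35.3 and 32.4 in CSR-1, while xpf-1, its partner's gene, had 14.3 and 16.0, 6.56 and 7.06, and 27.6 and 33.8. The partners were thus ordered in opposite ways over the 3 groups, unlike msh-5 with him-14 or brc-1 with brd-1. Other pairs of partners among the 43 were not compared here. rec-1 was no longer called (0.90) when the median ratio to the input was set to 0.

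**Figure D4:**
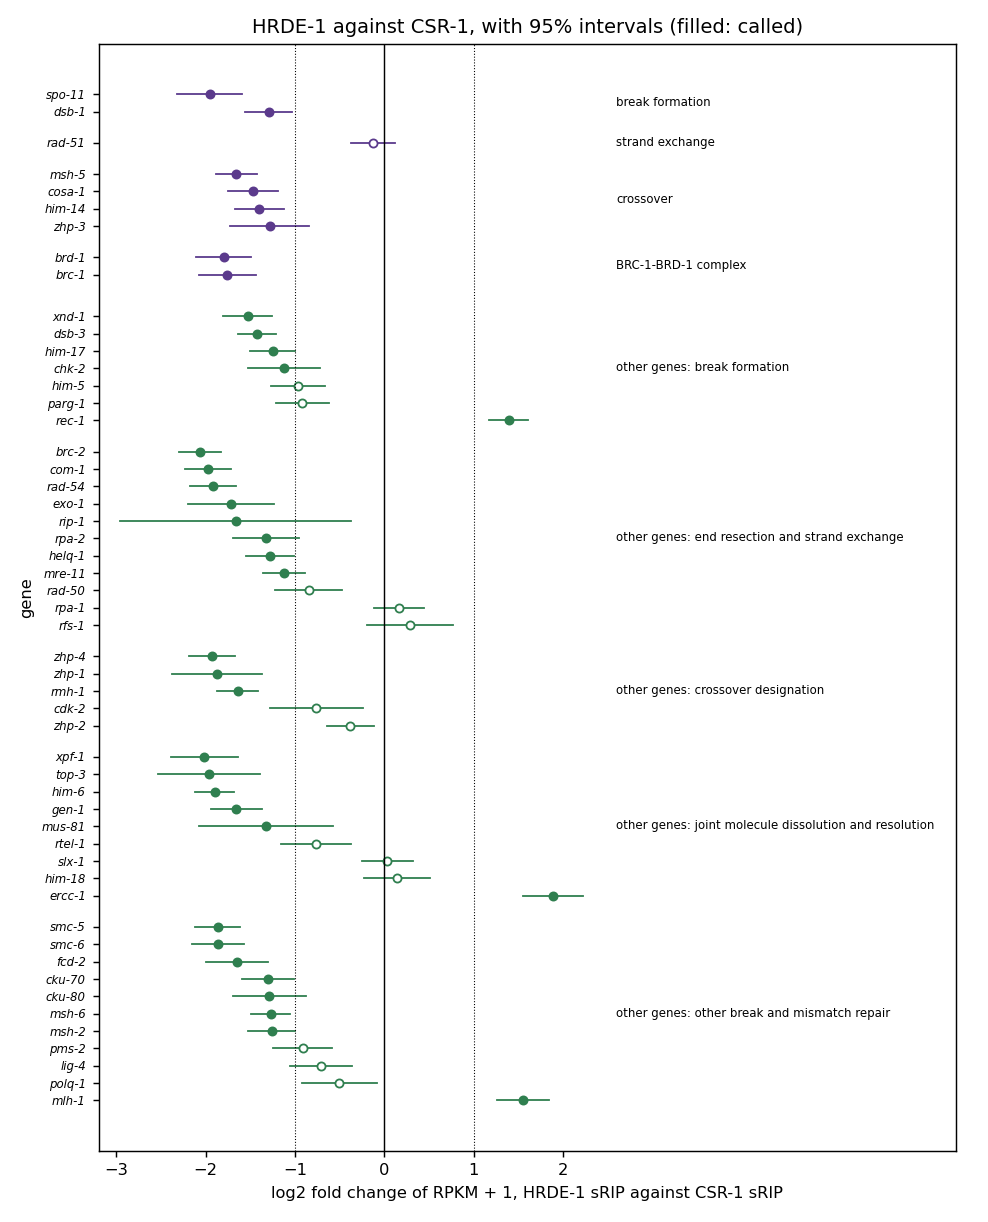
Log2 fold change of RPKM + 1 between HRDE-1 and CSR-1 precipitates (horizontal axis) with its 95% interval for the 9 recombination genes (purple) and 43 other genes of recombination and break repair (green), grouped by role and filled where called. Of the points, 8 of 9 and 27 of 43 are called lower in HRDE-1, and ercc-1, mlh-1 and rec-1 lie right of 1.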

How the data were processed

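The authors deposited RPKM values for 20938 gene models in 6 libraries. The submitters' processing notes name Bowtie 1.2.3. Build, annotation, strand, read lengths and handling of multiply mapping reads were not given in the sources used here. For 610 symbols with several models, the one with the highest mean was kept. Library totals and model lengths were deduced from ratios of values: with these, the 80624 values above 0 gave whole reads in 100% of cases (within 1e-06 of the value), a weak check, since the shortest fitting lengths were taken and 355 were raised to a multiple. Reads, totals and the chi-square test of replicates rest on them, RPKM and fold changes do not. The chi-square per degree of freedom was 1.96 for the HRDE-1 pair (10019 genes) and 1.06 for the CSR-1 pair (7830 genes, p = 0.000173), so only the input pair was merged, as its mean RPKM, which departs from the planned 2 input samples.

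limma 3.58.1 (R 4.3.3) was fitted to log2(RPKM + 1) of 10908 genes with a trended prior and 1 mean per group, the lone input being assumed to vary like the other groups. Its two-sided p-values were adjusted by Benjamini-Hochberg over all genes tested. A fold change on this scale understates that of low genes. The fit was tested on simulated data, with changes larger than any member's against the input and the same spread in all groups. That test therefore does not cover changes of the members' size. Alternatives were another pseudocount, other filters, 2 other scalings, voom weights, 2 input samples, a replicate block and each library left out. Named genes were all members, and of the 43 other genes those called, up to the 4 with the largest change per direction and comparison; brc-2 in HRDE-1 was added as the fifth of 5. Members and lists were chosen with earlier results of these data known. Gene names and overlaps come from WBcel235. The 45 value columns of another table carry library codes that labels do not tie to samples and were not used here, nor were the other 45 samples.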

Additional observations from a re-analysis of the deposited data

How the results depend on the processing

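Of 486 values of single members under an alternative, 457 kept their direction and side of the threshold. Many of the 486 could not change direction. Another filter, or leaving out a library that is not in the comparison, leaves the fold change as it was. Small RNA against rad-51 changed sign in 3, to 0.047 in HRDE-1 and 0.25 in CSR-1 with library medians centred and to 0.32 in CSR-1 when the ratio to the input had its median set to 0. Of the others, 9 lost a call and 17 gained one.

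Members called in HRDE-1 against input numbered 2, but 0 with library medians centred, and from 0 to 2 with a library left out. spo-11 and dsb-1 were lost without either HRDE-1 library, where limma with the merged input had 1 residual degree of freedom and called 0 genes at all (4723 and 4411 had an unadjusted p under 0.05; 9 and 7 of the members). Only dsb-1 was called without CSR-1 replicate 1 or 2, which changes only the estimated spread and the genes tested. All genes called in that comparison ran from 0 to 2250 with a library left out, beside 1904, and were 1175 and 1162 without CSR-1 replicate 1 and 2. With 2 input samples, leaving out any precipitate library, a combination added after seeing the data, kept 2 members called.

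Members called in CSR-1 against input numbered 1, but 2 with a pseudocount of 0.1, 7 with either other scaling, and from 1 to 2 with a library left out. The added member was brd-1 in each case of 2, also with 2 input samples without CSR-1 replicate 1. Between the precipitates 8 were called under every alternative run.

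The scaling also moved the split of all calls. In HRDE-1 against input, 780 genes were higher and 1124 lower, but 2254 and 333 with library medians centred; in CSR-1 against input, 778 and 4019, but 2540 and 2969 centred and 2785 and 2810 with the median ratio set to 0. Between the precipitates the split was 4767 and 2901, and 3755 and 3835 with the median ratio set to 0.

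Same-numbered libraries did not deviate together (correlations of deviations 0.023, 0.0043 and 0.033 over 10908 genes), and the labels do not say what a number marks. Libraries of a number also share a library code prefix in their titles. Within each prefix 9 of 9 members were lower in HRDE-1 than in the input and than in CSR-1, and 8 of 9 higher in CSR-1 than in the input (median log2 differences −0.84 and −0.85, −1.51 and −1.49, and 0.64 and 0.74). These directions follow from the libraries that do not overlap, and are no further evidence. Against the input, 41.7% of all tested genes had both HRDE-1 libraries lower and 33.2% both CSR-1 libraries higher. Between the precipitates, 4628 of the 10908 tested genes had a log2 fold change below 0, and the share within each prefix was not counted. There rad-51 differed by only −0.02 and −0.23 on the log2 scale. With a replicate block and 2 input samples, 2, 1 and 8 members were called in the 3 comparisons, and 2099, 4894 and 7676 genes, beside 2088, 4888 and 7665 with 2 input samples and no block. Precision is limited by the number of libraries, and for spo-11 by its 19 to 141 reads per library.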

Other observations

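Beside rad-51, 5 of the 43 other recombination and repair genes had both HRDE-1 and both CSR-1 libraries below both input libraries in RPKM, as did 10.4% of all tested genes. They were rpa-1, rfs-1, polq-1, slx-1 and him-18, named here after their values were seen. rfs-1, a paralog of rad-51, had 13.6 and 14.8 RPKM in the input, 9.22 and 7.495 in HRDE-1 and 5.93 and 7.39 in CSR-1. rpa-1, a subunit of the complex that coats single-stranded DNA before RAD-51, had 29.4 and 27.4, 21.2 and 23.0, and 18.5 and 20.6. slx-1 and him-18, which encode partners of a nuclease complex, had overlapping precipitates, at 30.3 and 27.0 against 29.5 and 26.3 RPKM for slx-1 and 13.4 and 11.3 against 11.5 and 10.6 for him-18. The sign in CSR-1 turned for polq-1 under both other scalings and for rpa-1 under the scaling that sets the median ratio to 0, and that of rpa-1 in HRDE-1 turned, to 0.04, with library medians centred. Another 31 of the 43 were ordered HRDE-1, input, CSR-1 with no overlap, and 3 in the reverse order, where 26.6% and 30.9% of all tested genes were.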
